A study of Xenopus laevis with 3 samples.

Results

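The Xenopus microRNAs of larvae raised in the orphan condition were compared with those of larvae raised in the sibling condition. They were chosen as the entries of a count table whose names mark X. tropicalis, X. laevis or X. borealis (prefixes xtr, xla and xbo), with identical mature sequences merged. Of 1272 named entries 178 were Xenopus entries, and these held 170 distinct sequences. The 156 that reached 30 counts, summed over the 3 libraries of the series, are described here. The tissue was labelled as neuronal tissue of the accessory olfactory bulb, cut from frozen sections of Xenopus laevis larvae at stage 45 and 15 days old. The orphan and the sibling condition each had 1 library, and a library of a non-sibling condition served for scaling and for values side by side. No strain, mutation or drug is named in the labels for any of the conditions, which differ by rearing alone as far as the labels say. The labels name 15 larvae without saying whether per condition or in all, so the animals behind each library are not known. With 1 library per condition there is no replicate check and no p-value, and every difference below is a difference between those libraries.

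MicroRNAs are short RNAs that guide Argonaute proteins to messenger RNAs and repress them. Bases 2 to 8 from the 5′ end, the seed, decide most of the pairing, so microRNAs with 1 seed form a family that can act on the same messages. The accessory olfactory bulb receives the axons of vomeronasal sensory neurons. The series title names a study of how peptide signals and microRNAs govern a switch of neurotransmitter that bears on social preference.

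Total counts were 22538325 for orphan, 5188106 for non-sibling and 865654 for sibling, so the orphan library was 26.04 times as deep as the sibling one. Conserved reads are counted in the entries of several species, so these totals are relative depths. The median member had 2567 orphan and 63 sibling counts, and 32 of the 156 members had under 10 sibling counts. Levels are given as scaled CPM, the CPM on a library size corrected by trimmed means of M values. A count of 1 stood for 0.0472 scaled CPM for orphan and 1.41 for sibling, and a count of 0 in the sibling library allows up to 4.23 scaled CPM (3 counts). Amplified reads are not independent molecules, and the intervals and floors express counting error alone. A member is called higher or lower where the ratio of orphan over sibling was at least 2, or at most 0.5, with a 95% interval that excludes 1. Most names refer to X. tropicalis and are printed without the prefix xtr.

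The tissue label was set against microRNAs known from single tissues. All 14 members of the neuron list passed the count filter, with a summed level of 16556 scaled CPM for orphan and 9907 for sibling, carried mostly by miR-9. The sum counts the same miR-9 reads under both miR-9-5p and miR-9a-5p, each at 6657 scaled CPM for orphan and 4013 for sibling. miR-124, the defining microRNA of vertebrate neurons, stood at 87.1 scaled CPM for orphan and 63.4 for sibling. That was below miR-133a of striated muscle, at 2742 and 2169 scaled CPM in the same order of libraries, and below miR-205a of skin epithelium, at 2536 and 3647. MicroRNAs of oligodendrocytes were nearly absent, with miR-338 at 2.83 and 1.41 scaled CPM and miR-219 at 3 orphan and 0 sibling counts. Both libraries therefore held microRNAs of muscle and epithelium beside those of neurons. In pooled tissue, fewer cells of a type and less RNA per cell cannot be told apart.

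The sequences below carry the results that follow. They are written 5′ to 3′ as the deposited table gives them, with the seed in capitals. The first set carries the seed common to miR-25 and miR-92, the only seed with members called in both directions:
miR-92b: uAUUGCACucgucccggccuc
xbo-miR-92a: uAUUGCACucgucccggccugac
miR-92a: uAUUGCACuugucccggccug
miR-25: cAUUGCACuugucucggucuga
miR-367: aAUUGCACuguagcaaugguga
miR-363-3p: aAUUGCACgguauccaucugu

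The second set holds members that were higher in the orphan library, with miR-9a-5p and miR-132 as the partners by seed of miR-9b-5p and miR-212:
miR-184: uGGACGGAgaacugauaaggcu
miR-9b-5p: uCUUUGGUuaccuagcuguauga
miR-9a-5p: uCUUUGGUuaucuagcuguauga
miR-9b-3p: uAAAGCUAgacaaccgaacgu
miR-9a-3p: uAAAGCUAgauaaccgaaagu
miR-138: aGCUGGUGuugugaauc
miR-135: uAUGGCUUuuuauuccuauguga
miR-212: uAACAGUCuacagucauggcu
miR-132: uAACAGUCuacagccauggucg

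The third set holds members that were lower, with let-7a as the reference for let-7e:
miR-125a: uCCCUGAGacccuuaaccugug
miR-125b: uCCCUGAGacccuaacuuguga
let-7e: uGAGGUAGuagguuguuuaguu
let-7a: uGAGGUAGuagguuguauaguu
miR-192: aUGACCUAugaauugacagcc
miR-215: aUGACCUAugaaaugacagcc
miR-194: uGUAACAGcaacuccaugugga
miR-191: cAACGGAAucccaaaagcagcu
miR-425-5p: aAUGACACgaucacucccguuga
miR-34b: cAGGCAGUguaguuagcugauug
miR-449a-5p: aGGCAGUGuaauguuagcuggu

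Relative to sibling, 15 of the 156 members were higher in orphan, 21 were lower and 120 were neither. The higher members were led by miR-135, miR-184, miR-212, miR-451 and both arms of miR-9b, and the lower ones by miR-92b, the X. borealis miR-92a and miR-125a. Over all 866 entries of the table with enough counts, Xenopus entries included, 9.47% were higher and 15.4% lower. The shares among the members (9.62% and 13.5%) were close to this background. The background counts conserved reads in the entries of several species, the members' own reads among them, so the closeness is partly built in. The median log2 ratio was 0.16 for the members and 0.11 for all 866 entries. Grouped by name, the 15 higher members fell into 12 families and the 21 lower into 13, with 1 family in both. Such a group can hold more than 1 seed. The direction of all 36 called members was kept under the 7 scalings of the counts and in the authors' quantile-normalized counts. Each scaling moves all members alike, by at most 0.30 on the log2 scale, so no scaling could turn a 2-fold call around. The quantile-normalized counts come from the same reads. The calls themselves held under all 7 scalings for 9 of the 15 higher and 16 of the 21 lower members. Over all other settings 16 calls were lost in at least 1, those of miR-212, miR-451, miR-9a-3p, miR-23a, miR-489, miR-16c, miR-363-3p, miR-30e and miR-26 among the higher members and of miR-193, miR-205b, miR-92a, miR-125b, miR-194, let-7b and let-7i among the lower. The split of higher to lower calls was 24 to 18 with total counts, 32 to 16 with total counts of Xenopus entries and 9 to 24 with trimmed means over Xenopus entries.

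**Figure D1:**
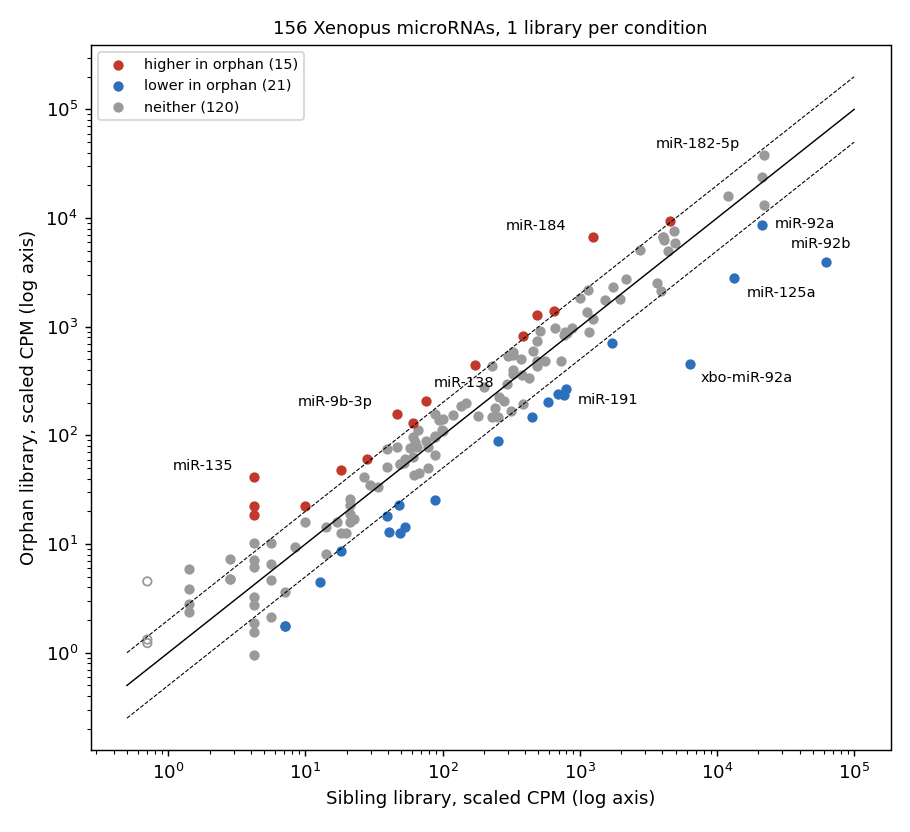
Scaled CPM of the 156 Xenopus members in the orphan library (vertical, log axis) against the sibling library (horizontal, log axis). The solid line marks equal levels and the dashed lines a ratio of 2 and of 0.5; open circles are the 3 members with no sibling count, drawn at 0.5 count. miR-92b, at 3935 scaled CPM for orphan and 62798 for sibling, lies farthest below the line.

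**Figure D2:**
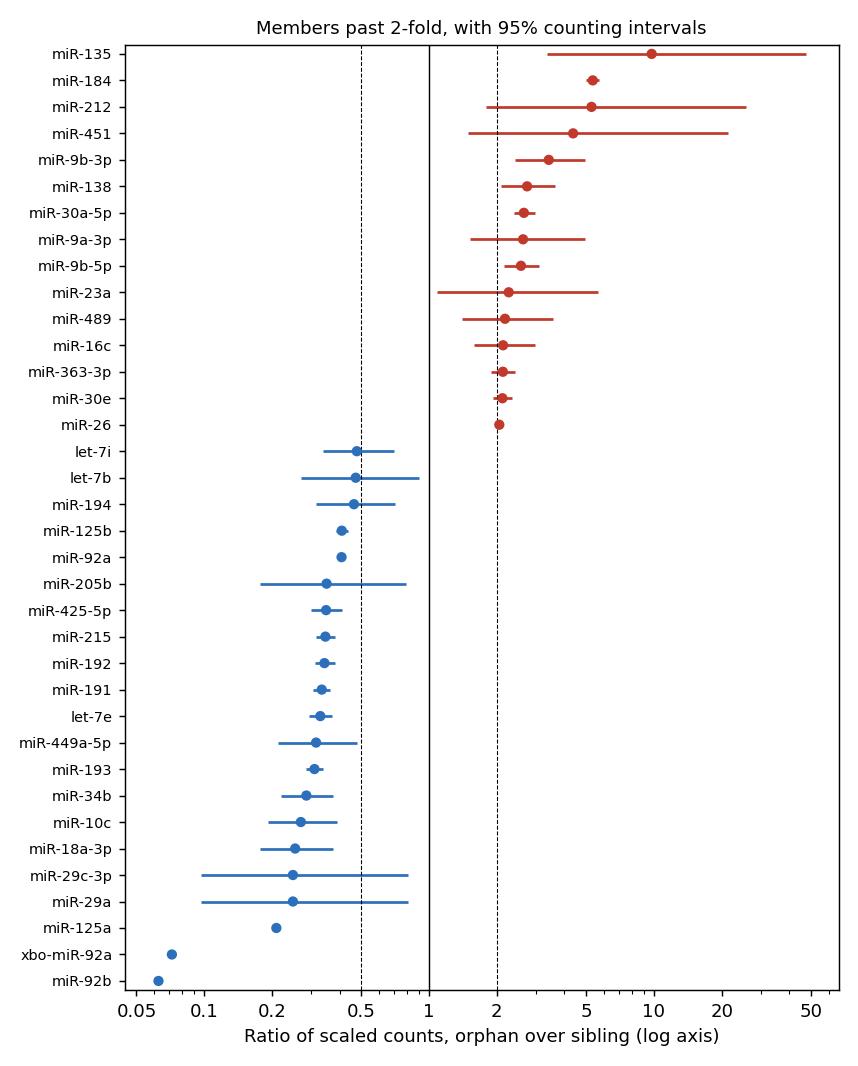
Ratio of scaled counts of orphan over sibling (log axis) for the 36 members called higher (red) or lower (blue). Bars are 95% counting intervals and dashed lines mark 2 and 0.5; the intervals of miR-135, miR-212 and miR-451, each with 3 sibling counts, are the widest among the higher members.

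Of the 14 entries of the neuron list 5 were called higher in the orphan library and none lower. Over all 866 entries 9.47% were higher and 15.4% lower. The 5 were 3 entries of miR-9, miR-138 and miR-212, and miR-212 had 3 sibling counts. miR-9, expressed in neural progenitors and neurons of vertebrates, had 3 of 5 entries higher and a ratio above 1 for all 5 under every scaling. The median ratio of all members was also above 1 (log2 ratio 0.16). miR-9b-3p had 3353 orphan and 33 sibling counts, or 158 and 46.5 scaled CPM, a ratio of 3.41 (2.42 to 4.96). miR-9b-5p, the other arm of that precursor, had 9399 and 123 counts and a ratio of 2.56 (2.15 to 3.09). Both arms of miR-9b were thus called higher. miR-9a-3p had 1015 orphan and 13 sibling counts and a ratio of 2.62 (1.52 to 4.94). The dominant miR-9a-5p, with 140904 and 2849 counts, stood at 1.66 (1.598 to 1.72) and did not reach 2-fold. The miR-9-5p entry lacks the last base of miR-9a-5p and has the same counts in all 3 libraries, so these entries hold 1 set of reads.

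miR-138, which is enriched in brain and acts at the synapse in rodents, had 4394 orphan and 54 sibling counts. That gave 207.6 and 76.1 scaled CPM and a ratio of 2.73 (2.09 to 3.64). miR-132 and miR-212 share a seed and, in mammals, a precursor transcript that neuronal activity induces. miR-132 stood at 198 scaled CPM in orphan and 149 in sibling, a ratio of 1.33 (1.10 to 1.63), whereas miR-212 had 472 and 3 counts and a ratio of 5.28 (1.79 to 25.7). The intervals of this pair do not overlap, but that of miR-212 rests on 3 sibling counts. miR-135, which acts in neurons of mammals, had 874 orphan and 3 sibling counts, or 41.3 and 4.23 scaled CPM. Its ratio was 9.77 (3.33 to 47.5), the highest of all members with a sibling count.

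The other neuronal members were not called. miR-128, a brain microRNA of mature neurons, had 38916 orphan and 718 sibling counts and a ratio of 1.82 (1.69 to 1.96), and miR-7, found in neuroendocrine cells, stood at 1.70 (1.28 to 2.33). miR-124 had 1843 orphan and 45 sibling counts and a ratio of 1.37 (1.02 to 1.89). miR-218, known from motor neurons, was at 0.9996 (0.766 to 1.33). miR-129, with 3159 and 179 counts, was at 0.592 (0.509 to 0.692), the lowest neuronal ratio. miR-137 and miR-153 had 2 and 3 sibling counts, too few to resolve a 2-fold difference. The median log2 ratio of the neuron list was 0.80, beside 0.16 for all members. The list counts the miR-9 reads more than once and holds neither miR-7 nor miR-135.

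miR-184 combined a large ratio with many counts in both libraries. It is abundant in lens and corneal epithelium and also present in brain. It had 140443 orphan and 881 sibling counts, or 6635 and 1241 scaled CPM, a ratio of 5.35 (5.004 to 5.72). Over the scalings the ratio ranged between 4.82 and 6.57. miR-204, of the retinal pigment epithelium, lens and choroid plexus, stood below 1, with 281701 orphan and 15589 sibling counts and a ratio of 0.606 (0.596 to 0.616). These 2 members of the eye list thus lay on opposite sides of 1. Their summed level was 19943 scaled CPM for orphan and 23200 for sibling.

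The family of miR-25 and miR-92, which is abundant in dividing cells, had 3 of 7 members lower, all of them named miR-92, and 1 higher. Among all 866 entries 15.4% were lower and 9.47% higher. miR-92b was the most abundant member of the sibling library, with 44582 counts, and ranked 15 in the orphan library, with 83298 counts. Its level was 3935 scaled CPM for orphan and 62798 for sibling, a ratio of 0.0627 (0.0619 to 0.0634). The X. borealis miR-92a had 9686 orphan and 4520 sibling counts, and its ratio was 0.0719 (0.0694 to 0.0745). miR-92a had 183596 and 15081 counts, or 8673 and 21243 scaled CPM, and a ratio of 0.408 (0.402 to 0.415), a call lost under total counts of Xenopus entries, with the GC trend removed and in the quantile-normalized counts, where its log2 ratio was -0.54 against -1.29.

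As the first set of sequences shows, miR-92b and the X. borealis miR-92a differ from miR-92a by U10C, counted from the 5′ end of miR-92a. miR-92b also differs from it by G21C. The entries with C at that position had ratios near 0.07, and the entry without it 0.408. Reads of these entries differ by so few bases that the counting may have divided or shared them, and their values are uncertain to that extent. miR-25 has the same seed, and with 10699 orphan and 264 sibling counts its ratio was 1.36 (1.20 to 1.54). miR-363-3p, of the same seed and of the cluster related to miR-17 in vertebrates, was called higher with 17274 and 272 counts and a ratio of 2.13 (1.89 to 2.41). That call was lost with trimmed means over Xenopus entries (log2 ratio 0.94), and with it the presence of both directions in this seed. miR-367 and miR-363-5p each had 2 sibling counts and a ratio of 1.69 (0.457 to 14.2).

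Members of the miR-17 cluster, which also holds miR-92a, and of clusters related to it were mostly not called. The family of miR-17, miR-20, miR-93 and miR-106, known for promoting cell division, had none of 6 members called, and its most abundant member miR-93a was at 1.11 (0.975 to 1.27). miR-17-5p was at 1.37 (1.12 to 1.69), miR-20b at 1.80 (1.40 to 2.35) and miR-19b at 1.68 (1.19 to 2.45). miR-18a-5p, with 746 orphan and 21 sibling counts, was at 1.19 (0.774 to 1.94). The opposite arm, miR-18a-3p, was called lower, with 265 and 35 counts and a ratio of 0.254 (0.178 to 0.372), so that it outnumbered the 5p arm in the sibling library only.

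The let-7 family, which restrains division and marks differentiated cells, had 3 of 8 members called lower and none higher. The share of all 866 entries called lower was 15.4%. All 8, miR-98 included, had a ratio below 1 under every scaling, in the main scaling between 0.329 and 0.792. let-7e had 3135 orphan and 320 sibling counts, or 148.1 and 450.7 scaled CPM, a ratio of 0.329 (0.293 to 0.370). let-7i, with 484 and 34 counts, was at 0.477 (0.337 to 0.697), and let-7b, at 8.65 and 18.3 scaled CPM, at 0.472 (0.269 to 0.904). let-7a lay just outside the rule at 0.502 (0.444 to 0.570), and the most abundant member, let-7f, was at 0.792 (0.706 to 0.891). let-7a and let-7e differ only by A17U, and their intervals do not overlap. The counting may have divided or shared reads between them and among other let-7 members. The calls of let-7i and let-7b were lost under scaling by total counts. The family median log2 ratio was -0.95, beside 0.16 for all members.

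miR-125, the vertebrate relative of the nematode microRNA lin-4 that often shares a cluster with let-7, was lower in both of its members. miR-125a had 58918 orphan and 9434 sibling counts, or 2783 and 13289 scaled CPM, and a ratio of 0.209 (0.205 to 0.214). miR-125b had 14998 and 1229 counts and a ratio of 0.409 (0.386 to 0.434), a call lost under total counts of Xenopus entries and in the quantile-normalized counts. miR-100, which sits in the same kind of cluster, was at 1.57 (1.52 to 1.62) with 160728 and 3438 counts, and miR-99 at 1.01 (0.880 to 1.16). Neither of this pair was called. Among the Hox cluster microRNAs, which mark trunk and hindbrain positions, miR-10c was lower at 0.269 (0.192 to 0.388) on 305 and 38 counts, while miR-10b was at 0.748 (0.641 to 0.877) and miR-10a at 1.16 (0.887 to 1.55).

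miR-192, miR-194, miR-215, miR-191 and miR-425-5p were each called lower, as were 15.4% of all 866 entries. They are not 1 family and were set together with the calls known, so their joint count is not a result. miR-192 and miR-215, of the gut epithelium, liver and kidney, share a seed and differ by U13A. miR-192 had 4272 orphan and 418 sibling counts, or 202 and 589 scaled CPM, a ratio of 0.343 (0.3099 to 0.380). miR-215 had 5086 and 493 counts and a ratio of 0.346 (0.315 to 0.380). miR-194, which lies beside miR-192 and miR-215 in vertebrate genomes and has another seed, had 387 and 28 counts and a ratio of 0.464 (0.316 to 0.707), a call lost under both scalings by total counts and in the quantile-normalized counts. miR-191 had 5647 orphan and 568 sibling counts, or 267 and 800 scaled CPM, a ratio of 0.333 (0.306 to 0.364). miR-425-5p, from the same precursor transcript as miR-191 in mammals, stood at 88.9 and 255 scaled CPM, a ratio of 0.349 (0.299 to 0.408). Since miR-192 and miR-215 differ by 1 base, the counting may have shared reads between them.

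The gut, liver and pancreas list had 3 of 4 members lower that passed the count filter, beside 15.4% of all 866 entries. miR-217 of the pancreas, the remaining member, had 40 orphan and 3 sibling counts. miR-122, the defining liver microRNA, had 1 orphan and 5 sibling counts, and miR-216 had 4 and 2, both below the filter. Scaled for depth, both were at a lower level in orphan than in sibling. The summed level was 462 scaled CPM for orphan and 1327 for sibling. Whether gut tissue in the samples had a part in this was not tested.

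miR-34 and miR-449, which act in multiciliated cells of Xenopus and mammals, had 2 of 6 members lower and none higher. Lower calls made up 15.4% of all 866 entries. The ratio of all 6 members was below 1, in 5 of them under every scaling. The 6 are grouped by name, hold 3 seeds and include miR-449b-3p, an opposite arm with 20 orphan and 3 sibling counts. miR-34b had 535 orphan and 63 sibling counts, or 25.3 and 88.7 scaled CPM, a ratio of 0.285 (0.219 to 0.376). miR-449a-5p had 272 and 29 counts and a ratio of 0.315 (0.214 to 0.479). These entries share their core, although the miR-34b entry starts 1 base earlier and so has another seed by position. miR-449c-5p was at 0.669 (0.5003 to 0.913) and miR-34a, which many tissues express, at 0.570 (0.303 to 1.21).

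**Figure D3:**
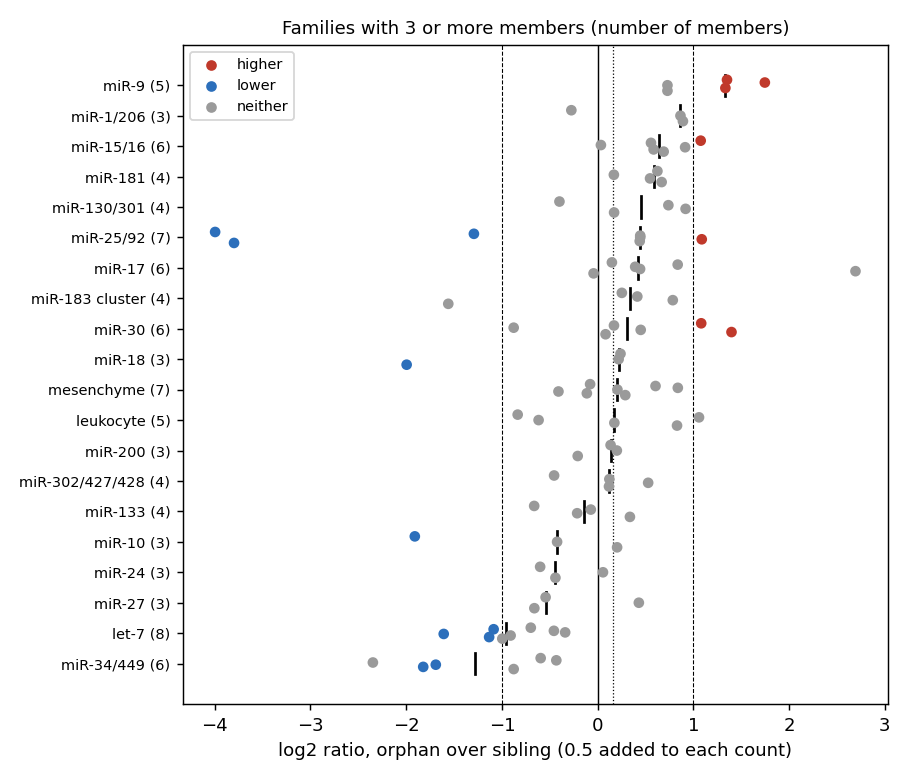
log2 ratio of orphan over sibling (0.5 added to each count) for each member of the families and marker sets with at least 3 members, ordered by median. Points are members, black bars medians, dashed lines 2-fold in each direction and the dotted line the median of all 156 members, 0.16. All points of let-7 and of miR-34 with miR-449 lie left of 0 and all miR-9 points right of it, while miR-25 with miR-92 spans both sides.

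Most epithelial microRNAs other than those of gut and cilia were not called. The miR-200 family, of epithelia and olfactory neurogenesis, had none of 3 members called: miR-200b was at 1.15 (1.06 to 1.25), miR-429 at 1.10 (1.01 to 1.20) and miR-200a at 0.868 (0.749 to 1.01). miR-375, of endocrine cells, was at 1.19 (1.11 to 1.28). Of the skin microRNAs, miR-203 was at 0.991 (0.890 to 1.11) and miR-205a at 0.695 (0.668 to 0.724), whereas miR-205b, on 94 orphan and 9 sibling counts, was lower at 0.350 (0.177 to 0.790). In the sensory cluster miR-182-5p, the most abundant member of the orphan library with 799947 counts against 15564 in the sibling library, stood at 1.72 (1.70 to 1.75), and miR-183 at 1.33 (1.305 to 1.36).

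Further calls fell in other families, most but not all of them found in many tissues. miR-30 divided: miR-30a-5p was higher at 2.64 (2.38 to 2.94) on 27323 orphan and 347 sibling counts, and miR-30e higher at 2.12 (1.93 to 2.33). miR-30d, the most abundant, was at 1.13 (1.09 to 1.17), and miR-30c at 0.545 (0.524 to 0.566), all with the same seed. miR-26, which is found in many tissues, lay just inside the rule at 2.05 (1.98 to 2.13), with 197369 orphan and 3224 sibling counts, and its call was lost under 4 other settings. In the miR-15 and miR-16 family, which restrains the cell cycle, all 6 ratios were above 1, miR-16a not under every scaling. A ratio above 1 was also the more common case over all members, whose median log2 ratio was 0.16. miR-16c alone was called, at 2.13 (1.58 to 2.96), and miR-15c, the most abundant, was at 1.89 (1.62 to 2.22). miR-23a was higher at 2.26 (1.09 to 5.66) on 472 and 7 counts, beside miR-23b at 1.15 (0.906 to 1.48), and miR-489 at 2.18 (1.40 to 3.58) on 1298 and 20 counts.

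miR-193 was lower, with 5001 orphan and 542 sibling counts and a ratio of 0.309 (0.283 to 0.339). miR-29a and miR-29c-3p were lower at 0.248 (0.0973 to 0.809), but both entries have 37 orphan and 5 sibling counts and 1 sequence lies within the other, so they are 1 observation. miR-451, which is made in red blood cells, was higher at 4.37 (1.48 to 21.3) on 391 orphan and 3 sibling counts. miR-144, its cluster partner, had 10 orphan and 3 sibling counts and fell below the filter. At an orphan depth 26.04 times that of sibling, these counts put miR-144 lower in orphan, opposite to miR-451. The call on the erythrocyte list thus rests on 3 sibling counts.

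Muscle, connective tissue, white blood cell and vessel microRNAs had no member called. The muscle list had 9 members. miR-133a had 58043 orphan and 1540 sibling counts and a ratio of 1.26 (1.20 to 1.33), miR-206 was at 0.830 (0.696 to 0.997) and miR-499 at 1.29 (0.884 to 1.94). The summed muscle level was 4838 scaled CPM for orphan and 4469 for sibling. Of the mesenchyme and cartilage list, miR-143 was at 0.925 (0.877 to 0.977), miR-199a-5p at 1.79 (1.61 to 1.99) and miR-140 at 1.22 (1.07 to 1.40). miR-150 of lymphocytes was at 0.653 (0.598 to 0.714), and miR-126-5p of endothelium at 1.08 (0.995 to 1.18). miR-155 of activated white blood cells had 3 sibling counts and an interval that includes 1.

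Other abundant members and family leaders were not called. miR-181a-5p, an abundant brain and lymphocyte microRNA, had 507792 orphan and 15138 sibling counts and a ratio of 1.13 (1.11 to 1.14), and all 4 miR-181 entries were above 1 under every scaling. The median over all members was above 1 as well, at a log2 ratio of 0.16. miR-148a was at 1.18 (1.14 to 1.22), miR-22-3p at 1.86 (1.78 to 1.95), miR-27b at 1.35 (1.27 to 1.43), miR-103 at 1.79 (1.57 to 2.05) and miR-222 at 0.890 (0.799 to 0.994). miR-130b and miR-15c, the nearest below the upper limit, were both at 1.89, and miR-146a, the second nearest above the lower one, was at 0.510. miR-146b was at 1.11 (1.02 to 1.20) and miR-24a-3p at 0.760 (0.454 to 1.37). miR-428, of the family that clears maternal messages in the early embryo, was at 0.731 (0.635 to 0.847). miR-455, found in cartilage, was at 1.33 (1.19 to 1.49), miR-210, induced by low oxygen, at 1.08 (0.844 to 1.42), and miR-139 at 1.12 (0.871 to 1.46).

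The depth of the sibling library bounded the rest. miR-17-3p, miR-33b and miR-142-3p had no sibling count. The highest orphan count among them was 96, for miR-17-3p, and the interval of its ratio, with a lower limit of 0.856, includes 1. For miR-22-5p, miR-137, miR-1b, miR-155 and miR-338 the ratio exceeded 2, and for miR-208, miR-217, miR-182-3p and miR-449b-3p it was under 0.5, but each had at most 4 sibling counts and an interval that includes 1. Differences of these 9 were not detectable at this depth. Of the 36 called members 7 had under 10 sibling counts. The 14 sequences below the filter had at most 10 orphan and 5 sibling counts each. The summed count is mostly orphan reads, so the filter favours members that are high in orphan. Without the filter the calls were 15 higher and 25 lower, so it removed lower calls only.

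Set beside the non-sibling library, the called members fell into different orders. Among the 15 higher members the orphan level was the highest of the 3 in 9 and the sibling level the lowest in 14. Among the 21 lower members the orphan level was the lowest in 15 and the sibling level the highest in 15. The call itself requires a gap between orphan and sibling, so these counts are partly fixed by it and are given as a description. miR-92b stood at 3935 scaled CPM in the orphan and 3051 in the non-sibling library, against 62798 in the sibling library. miR-125a stood at 2783 and 2063, against 13289, and miR-193 at 236 and 216.9, against 763. For these 3 members the orphan and non-sibling levels lay closer to each other than to the sibling level.

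For other members the sibling level lay between those of the other libraries. miR-184 had 6635 scaled CPM in the orphan and 555 in the non-sibling library, against 1241 in the sibling library, the only higher member for which the sibling value lay in the middle. miR-191 had 267 and 880, against 800, and miR-425-5p had 88.9 and 298, against 255. miR-215 had 240 and 772, against 694, and miR-34b had 25.3 and 120, against 88.7. For 6 lower members, miR-191, miR-425-5p, miR-215, miR-194, miR-34b and miR-449a-5p, the sibling value lay between the others and the orphan value was the lowest. All these values share the scaling and the sibling library, and each library is a sample of 1.

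**Figure D4:**
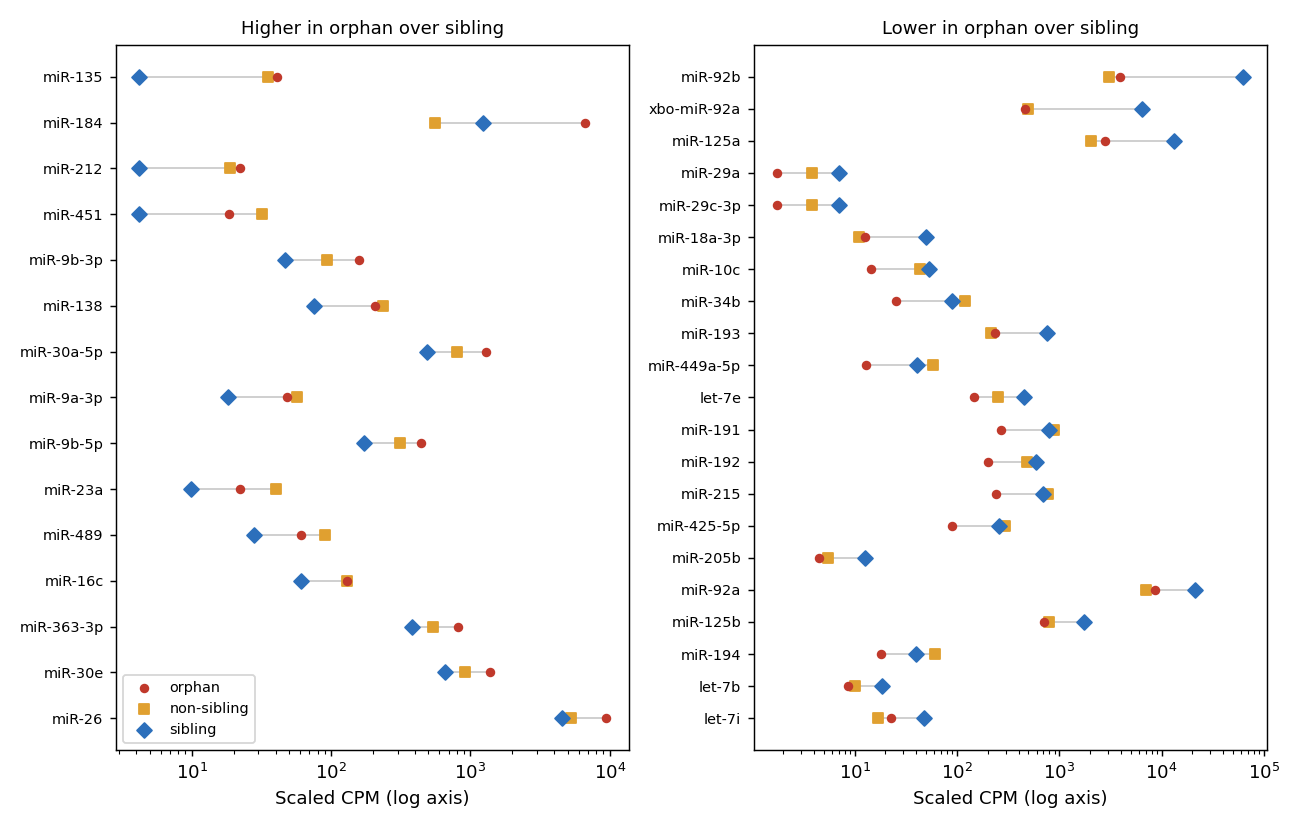
Scaled CPM (log axis) of the 15 higher (left) and 21 lower (right) members in the orphan (circle), non-sibling (square) and sibling (diamond) libraries, 1 library each. For miR-92b, miR-125a and miR-193 the orphan and non-sibling symbols lie together, away from the sibling symbol, whereas for miR-191, miR-215 and miR-34b the orphan symbol stands alone at the low end.

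Where both arms of a precursor were members, they did not always keep step. Both arms of miR-9a and miR-9b were above 1. The 5p arm of miR-30a was at 2.64 and its 3p arm, on 1184 orphan and 37 sibling counts, at 1.07 (0.774 to 1.53). The arms of miR-18a were at 1.19 for 5p and 0.254 for 3p, the only precursor with 1 arm called lower, and those of miR-126 at 1.08 for 5p and 1.81 for 3p.

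GC content differed between the called groups. That of the lower members had a median of 47.8%, against 42.9% in the higher members and 43.5% over all 156, and the median length was 22 bases in each. Of the 12 members with a GC content of 55% or more, 4 were lower and none higher, with a median log2 ratio of -0.63. Across the members Pearson's r of log2 ratio and GC content was -0.28 and Spearman's rho -0.20 (n = 156), and without miR-25, miR-92 and their relatives they were -0.19 and -0.16 (n = 149). The members share 2 libraries and are not independent. Removing a linear trend on GC content and length kept 12 of the 15 higher and 18 of the 21 lower calls. With the trend removed 16 members were higher and 21 lower, so some members were newly called in each direction. The part of base composition in the ratios was not tested further.

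**Figure D5:**
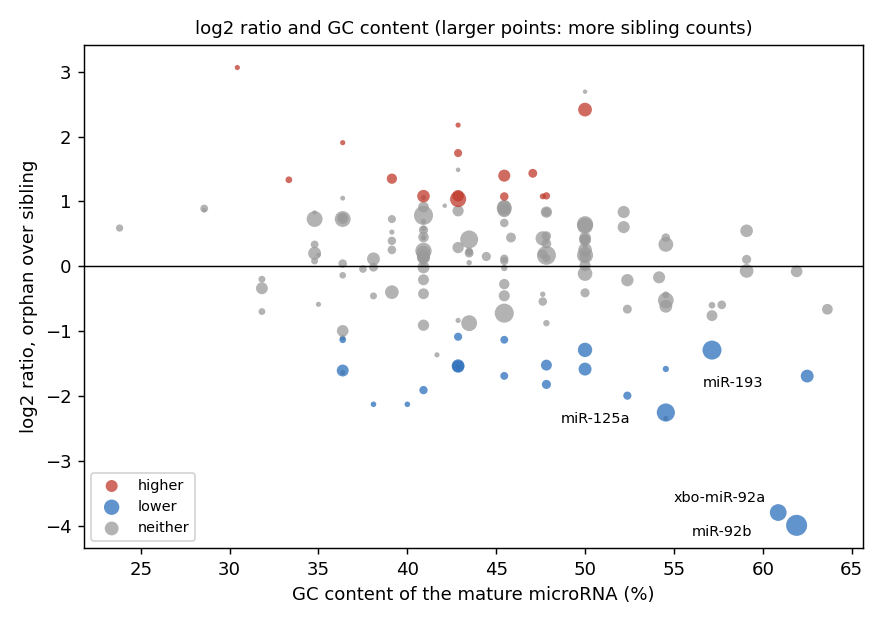
log2 ratio of orphan over sibling against the GC content of the mature microRNA, in percent, for the 156 members coloured by call, with larger points for more sibling counts. miR-92b and the X. borealis miR-92a, above 60% GC, lie lowest, and without their family the correlation was -0.19.

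In the authors' deposited table the log2 ratio runs the other way, sibling over orphan, and its header names quantile-normalized counts. For members with few counts it is smaller in size than the plain ratio of those counts. For miR-135 the quantile-normalized counts give a log2 ratio of orphan over sibling of 3.63, against the deposited -1.89 of sibling over orphan. How the deposited ratio was calculated is not known. In the authors' deposited table it was 3.20 for miR-92b, 3.89 for the X. borealis miR-92a, 1.57 for miR-125a, 1.57 for miR-191 and 1.44 for let-7e, positive where sibling was higher. In the authors' deposited table it was -2.58 for miR-184, -1.79 for miR-9b-3p, -1.38 for miR-138 and -1.89 for miR-135. It had the corresponding sign for all 15 higher and all 21 lower members in the authors' deposited table. Those values come from the same counts as the calls, so the signs are no separate check.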

How the data were processed

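Counts of mature microRNA entries in 3 libraries (orphan, non-sibling and sibling, 1 each) were used as the authors deposited them, whole-number read counts per entry with no normalization, per the file headers. The table also holds a signal that the authors made from them by quantile normalization, and the authors' log2 ratio of those values between libraries. For the aligner, the counter, the microRNA release and the build, the sources used here give no name. The labels' protocol names a kit for messenger RNA libraries, so the library method is not settled.

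Counts were scaled by trimmed means of M values over all named entries and 3 libraries (edgeR 4.0.16, R 4.3.3), with factors of 0.939 for orphan, 1.30 for non-sibling and 0.820 for sibling. The ratio of orphan over sibling has an exact conditional interval (Clopper-Pearson, 95%). Log2 ratios have 0.5 added to each count. The 8 pairs of identical sequences had equal counts and were each kept once. Named were all called members, the 10 most abundant, the most abundant of each family, and the neighbours of the limits. The alternatives covered scaling, filter, merging, added count, GC content and size rule. Members, families and lists were chosen with earlier results of these data known. The calculation was tested on simulated data (Python 3.11.15, numpy 2.4.6, pandas 2.3.3, scipy 1.17.1, matplotlib 3.10.9).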

Additional observations from a re-analysis of the deposited data

Results flagged for a closer look

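Some microRNA numbers are represented in the table by other species alone and lie outside the comparison. Of 51 such entries with enough counts, 4 were higher in the orphan than in the sibling library and 19 were lower, beside 9.47% higher and 15.4% lower over all entries. The share lower was above that of all entries and the share higher below it. Values follow for the 4 higher entries only, and the 19 lower ones are not described. gga-miR-1662 had 1259 orphan and 12 sibling counts and a ratio of 3.52 (2.01 to 6.83). ola-miR-1788 had 656 and 10 counts and a ratio of 2.20 (1.19 to 4.61), and aca-miR-1788-3p, with nearly the same counts, a ratio of 2.19 (1.18 to 4.58). ggo-miR-454 had 21390 and 354 counts and a ratio of 2.03 (1.82 to 2.26). By its seed ggo-miR-454 belongs with miR-130 and miR-301, which have 4 Xenopus members, none of them called.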

How the results depend on the processing

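The main counts were 15 members higher and 21 lower, with a median log2 ratio of 0.16. The number of higher members moved with the scaling: total counts of all entries gave 24 (median 0.36), total counts of Xenopus entries 32 (median 0.46), trimmed means over Xenopus entries 9 (median 0.011) and the authors' quantile-normalized counts, judged by size only, 35 (median 0.31). Adding 5 counts gave 9 higher members and a median of -0.10, and a size rule of 1.5-fold gave 34. The first 3 of these scalings shift all members alike on the log2 scale, by 0.20, 0.30 and -0.15, whereas quantile normalization and added counts move members unequally. An added count stands for 1.41 scaled CPM in the sibling library and 0.0472 in the orphan library. Adding 5 counts to each thus lowers the ratio of any member with more orphan than sibling counts. The fall in higher calls and in the median under that setting was therefore built in. The number of lower members stayed between 16 and 29 over all settings, and without a 1.5-fold rule between 16 and 25. No called member changed direction, and under a shift of all members alike a 2-fold call could not. Over 16 settings 20 of the 36 calls held wherever the member could be counted, and 16 were lost in at least 1 setting, most often miR-26, in 4. Not all settings could lose a call. The changes of filter and of merging among Xenopus entries left the counts and scaling of the called members as they were. A 2-fold call also passes a 1.5-fold rule. Calls of members kept in those settings were thus fixed in advance. Trimmed means over entries with at least 30 counts, a setting chosen after seeing the data, gave 14 higher and 22 lower. Requiring 10 counts in each library left 11 higher and 18 lower, without miR-135, miR-212, miR-451 and miR-23a. The cause of the other moves was not tested. No paired analysis was possible because each condition has 1 library.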
